A study of Mus musculus with 8 samples.

Results

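Within the *Hic1* lineage of the embryonic mouse forelimb, a small population was examined that carried transcripts of *Mgat4c*, *Nkain3*, *Ephb1*, *Pcdh15*, *Fam81a* and *Pld5*. The members were all cells of the E14.5 library and of the E16.5 distal library that had at least 3000 UMIs, at most 10% mitochondrial UMIs and at least 1 UMI in at least 3 of these 6 genes. A UMI (unique molecular identifier) marks 1 captured transcript. The rule found 54 of 8381 kept cells at E14.5 and 263 of 8447 kept cells in the E16.5 distal segment, or 317 of 16828 cells of both libraries and of 53085 kept cells in the whole series. Because measured UMIs of these 6 genes chose the members, their levels are given as a description and support nothing.

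The series profiled 8 single-cell RNA libraries of mouse forelimb, of which 6 held sorted tdTomato+ cells and 2 held whole limbs at E11.5. All groups carried the *Hic1* CreERT2 allele in homozygous form, with a Cre-dependent tdTomato reporter at Rosa26, on C57BL/6J, and the dams had received 7.5 mg of tamoxifen by gavage at embryonic day 10. A tdTomato+ cell is therefore one that expressed *Hic1* soon after tamoxifen, or a descendant of one, in an embryo whose *Hic1* alleles both carry CreERT2. At E14.5 the whole forelimb was taken, and at E16.5 the limb was cut into a proximal segment around the elbow and a distal segment of distal zeugopod and autopod (hand plate). Forelimbs of several embryos were pooled, so the E14.5 and the E16.5 distal group are 1 library each with no replicate, no test was possible and no p-value is given. Values are CPM, the UMIs of a gene summed over cells and scaled to a total of 1000000 UMIs, ratios are log2 of (CPM + 1) of the members over all other kept cells of the same library (the rest), and intervals are exact 95% intervals that cover counting error only. The stage, the limb part taken, the embryos and the Cell Ranger version of the counts (3.0.2 and 6.0.1) cannot be told apart in any difference between both libraries.

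The autopod is the last segment of the limb to be laid down. Its mesenchyme is defined by the last genes of the HoxA and HoxD clusters, *Hoxa13* and *Hoxd13*, without which digits do not form, while the upper arm and forearm carry Meis genes, *Shox2* and *Hoxa11*. At these stages autopod mesenchyme surrounds the digit cartilage and gives rise to tendon, dermis, joint and other connective tissue of the hand.

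The share of cells that met the rule was 0.644% at E14.5 (0.484 to 0.840) and 3.11% in the E16.5 distal library (2.75 to 3.51). It was far smaller elsewhere. In the E16.5 proximal library 3 of 11109 cells met it (0.0270%, 0.00557 to 0.0789), at E13.5 3 of 6123 (0.0490%) and at E12.5 1 of 4714 (0.0212%). The sorted E11.5 library held 0 of 3165 (a count of 0 allows up to 0.116%), and each whole E11.5 limb held 1, of 5464 and 5682 cells. A cell with more UMIs is more likely to meet the rule, and the part of depth in these shares was not tested. Median UMIs per kept cell ran from 6788 at E13.5 to 18473 in the E16.5 proximal library, where 3 of 11109 cells met the rule. They were 14333 at E14.5 and 17275 in the distal library, and libraries up to E13.5 came from an earlier reagent kit than later ones. With every cell thinned to 3000 UMIs, 13 distal cells (0.154%, 0.0820 to 0.263) and 2 E14.5 cells (0.0239%, 0.00289 to 0.0862) still met the rule, against 0 in each other library. The exact upper limits for these counts of 0 ran from 0.0332% in the E16.5 proximal library to 0.116% in the sorted E11.5 library. The E14.5 interval overlaps all of them and the distal interval that of sorted E11.5. At that depth 87 distal cells (1.03%) and 43 E14.5 cells (0.513%) had at least 2 of the 6 genes, against 14 cells (0.229%) at E13.5 and at most 2 cells in each other library.

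**Figure D1:**
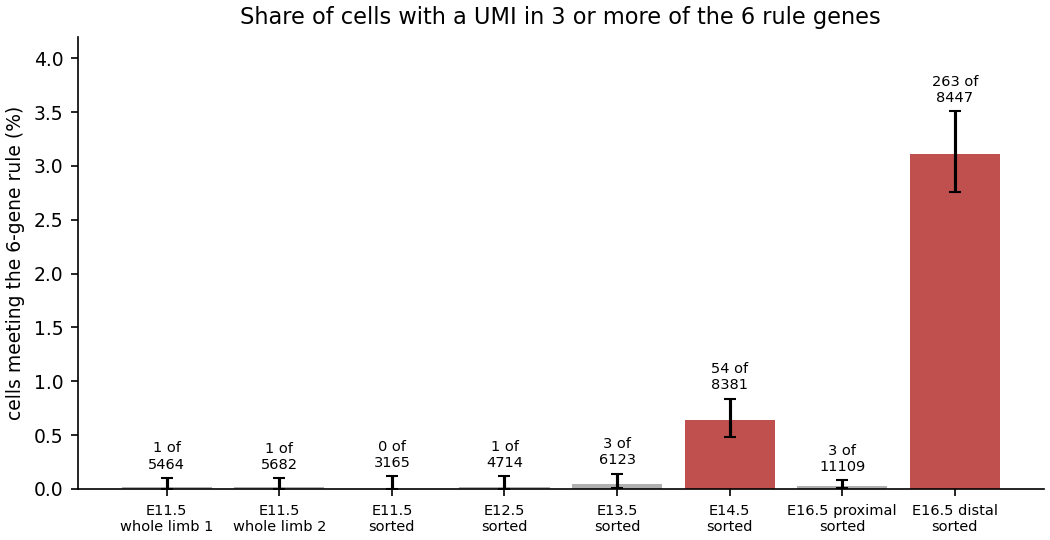
Share of kept cells (%) with a UMI in at least 3 of the 6 genes in each of the 8 libraries, with exact 95% binomial intervals and the number of cells above each bar. The E16.5 distal library stands highest at 3.11% and the E14.5 library follows at 0.644%, while no other library reaches 0.1%.

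The members were somewhat deeper than the rest. Their median was 15367 UMIs against 14322 at E14.5 and 20839 against 17146.5 in the distal library, and their median mitochondrial share was 3.34% against 3.09% and 2.36% against 2.21%. The part of this depth gap in the ratios below was not tested, but a comparison with the rest weighted to the members' depths is among the alternatives that were run. Sex was called per cell, female with a UMI of *Xist* and none of the Y-linked genes *Ddx3y*, *Eif2s3y*, *Kdm5d* and *Uty*, and male in the reverse case. All other cells were left undetermined. The share of cells meeting the rule was near equal in both sexes. At E14.5 27 of 4254 female cells (0.635%) and 18 of 2884 male cells (0.624%) met the rule, and in the distal library 142 of 4586 (3.10%) and 84 of 2934 (2.86%) did. Of the undetermined cells 9 of 1243 (0.724%, 0.332 to 1.37) and 37 of 927 (3.99%, 2.83 to 5.46) did. No barcode was shared between the members of both libraries, and of the 263 distal members 1 had a barcode that also occurred at E14.5 and 3 one that occurred in the proximal library.

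The 6 genes lie on 4 chromosomes of GRCm38 in the GENCODE annotation, *Pcdh15* at chr10:73099342-74649737, *Mgat4c* at chr10:101681487-102391469, *Nkain3* at chr4:20118874-20778866, *Ephb1* at chr9:101922128-102354693, *Fam81a* at chr9:70088511-70142560 and *Pld5* at chr1:175962306-176275312. Of their products, several sit in the cell membrane. *Nkain3* encodes a membrane protein that interacts with the sodium pump, *Ephb1* a receptor tyrosine kinase for ephrin-B ligands and *Pcdh15* a protocadherin known from the tip links of inner ear hair cells. *Mgat4c* belongs to the family of Golgi enzymes that branch N-glycans, and *Pld5* to the phospholipase D family. The frequency of the 6 genes in members was not alike in both libraries. At E14.5 *Pcdh15* was found in 85.2% of members and 5.87% of the rest, *Ephb1* in 77.8% and 5.46%, and *Nkain3* in 64.8% and 5.72%. These 3 genes were the most frequent in members at that stage. *Fam81a* was found in 55.6% of members and 5.79% of the rest, *Mgat4c* in 24.1% and 1.35%, and *Pld5* in 7.41% and 0.528%. At E16.5 *Nkain3* led with 75.7% of members and 5.55% of the rest, followed by *Fam81a* with 67.7% and 16.3% and *Ephb1* with 57.4% and 5.89%. *Mgat4c* there reached 51.7% and 3.95%, *Pcdh15* 41.8% and 3.05%, and *Pld5* 35.0% and 1.61%. In members *Pcdh15* and *Ephb1* were less frequent in the distal library than at E14.5, and *Nkain3*, *Fam81a*, *Mgat4c* and *Pld5* more. The rest moved the same way for *Pcdh15*, *Fam81a*, *Mgat4c* and *Pld5*, so these shifts were not particular to the members. The distal library was also the deeper of both.

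Levels in CPM were likewise higher in members for each of these genes. *Ephb1* stood at 127 CPM in members and 6.29 in the rest at E14.5, and at 63.3 and 5.47 in the distal library. *Mgat4c* stood at 15.4 and 1.08 CPM at E14.5 and at 55.5 and 4.17 in the distal library. *Nkain3* was nearly level between stages, at 75.9 and 5.41 CPM and then 70.2 and 4.47. Epithelial cells, which should lack a mesenchymal programme, give a background for free RNA. In the 75 and 105 epithelial cells (median 22135 and 25569 UMIs) the share with a UMI was 2.67% and 4.76% for *Nkain3*, at most 2.86% for *Ephb1* and *Pcdh15* and 0 for *Mgat4c*. Of these epithelial cells 0 met the rule. With 3 cells as the floor for a count of 0 this is a share below 4.0% and 2.86%, which are not exact limits. So few epithelial cells do not set them apart from the members' share of either library. *Fam81a* was found in 8.0% and 27.6% of epithelial cells, above the rest of either library, and *Pld5* in 0 and 1.90%, beside 1.61% of the distal rest.

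The number of cells fell with each further gene that a cell had. At E14.5 6570 cells had none of the 6 genes, 1456 had 1, 301 had 2, 46 had 3 and 8 had 4. The distal numbers were 5737, 1922, 525, 197, and 66 with 4 or more. Just outside the rule, cells with exactly 2 genes held 43.1 CPM of *Pcdh15* and 60.04 of *Ephb1* at E14.5, against 69.0 and 119.8 in cells with exactly 3 just inside it. The same pair of distal classes held 30.7 and 61.7 CPM of *Nkain3* and 27.35 and 51.98 of *Mgat4c*. The classes are defined by these same genes, so a higher level in the class with more genes is built into the comparison. The median depth of these classes was 14378 and 15394.5 UMIs at E14.5 and 19148 and 20578 in the distal library.

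Each of the 6 genes can also be read in cells chosen by the other 5. The 6 genes were picked together with earlier results of these data known, so these ratios are a description and support nothing. The chosen cells were not matched in depth to the others. With at least 3 of the other 5 genes required, *Ephb1* was 10.5-fold higher than in all other cells at E14.5 (6.77 to 15.6) and 5.94-fold in the distal library (4.96 to 7.06). *Pcdh15* was 13.2-fold (7.91 to 20.8) and 5.45-fold (4.19 to 7.01) higher, and *Nkain3* 5.84-fold (3.38 to 9.41) and 8.04-fold (6.72 to 9.58). *Fam81a* had ratios of 3.22 (1.47 to 6.15) and 2.98 (2.52 to 3.51). Distal *Pld5* was 8.29-fold (6.19 to 11) and *Mgat4c* 4.44-fold higher (3.58 to 5.45). At E14.5 both were too sparse for a ratio of use, with 2 UMIs of *Pld5* (5.62, 0.663 to 21.4) and 3 of *Mgat4c* (3.16, 0.645 to 9.41).

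Distal cells paired the 6 genes unevenly. Over all kept distal cells, *Fam81a* was found in 45% of cells with *Ephb1* and 15.7% of cells without it. *Nkain3* was found in 36.4% of cells with *Mgat4c* and 6.08% without, and *Pcdh15* in 22.9% and 3.19%. *Pcdh15* was found in 17.2% of cells with *Nkain3* and 3.18% without, and *Pld5* in 10.4% with *Nkain3* and 2.00% without and in 7.22% with *Fam81a* and 1.66% without. Other pairs included *Ephb1* in 16.3% of cells with *Mgat4c* and 6.99% without, *Ephb1* in 17.9% with *Nkain3* and 6.62% without, *Fam81a* in 31.5% with *Nkain3* and 16.7% without and *Pcdh15* in 8.21% with *Ephb1* and 3.94% without. *Fam81a* stood apart from *Mgat4c* and *Pcdh15*. It was found in 17.9% of cells with *Mgat4c* and in the same share without it, and in 18.6% with *Pcdh15* against 17.8% without. The most frequent combinations in single distal members were *Nkain3* with *Ephb1* and *Fam81a* alone (40 members, 15.2%) and *Mgat4c* with *Nkain3* and *Pcdh15* alone (37 members, 14.1%). At E14.5 they were *Ephb1* with *Pcdh15* and *Fam81a* (13 members, 24.1%) and *Nkain3* with *Ephb1* and *Pcdh15* (12 members, 22.2%). Cells with more UMIs are more likely to show any of these genes, so the shares are descriptions.

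The promoters of *Pcdh15*, one of the 6 genes, and of *Pcdh8*, a protocadherin outside the rule, are shown because both genes encode protocadherins. *Pcdh15* is higher in members by the rule itself. *Pcdh8* had one of the largest ratios in both libraries. They are the 250 bases before an annotated start in RefSeq on GRCm38.p6, written 5′ to 3′ on the strand of the gene. The start of *Pcdh15* used here lies inside the annotated gene, and that of *Pcdh8* at its 5′ end. Capitals mark CAATAAA, the core of the site that HOX13 proteins prefer (TTTATTG on the other strand), and TATAAA, the core of the TATA box (TTTATA on the other strand).
Pcdh15 (chr10:73821617-73821866, + strand): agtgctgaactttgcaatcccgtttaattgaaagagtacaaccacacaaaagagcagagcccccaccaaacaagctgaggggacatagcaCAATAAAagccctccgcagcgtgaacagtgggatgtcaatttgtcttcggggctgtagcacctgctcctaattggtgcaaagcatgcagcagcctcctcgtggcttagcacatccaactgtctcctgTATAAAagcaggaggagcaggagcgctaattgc
Pcdh8 (chr14:79771313-79771562, - strand): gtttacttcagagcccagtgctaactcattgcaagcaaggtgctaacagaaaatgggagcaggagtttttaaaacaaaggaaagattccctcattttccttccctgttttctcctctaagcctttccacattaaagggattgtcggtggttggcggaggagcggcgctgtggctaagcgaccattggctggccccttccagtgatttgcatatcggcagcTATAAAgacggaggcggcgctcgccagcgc

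Of the 18 genes looked up, 14 had an entry, with 23 promoters in all. CAATAAA was found in 1 of these 23, that of *Pcdh15*, and in 4.2% of all 32851 promoters in the table. TATAAA was found in 3 of the 23, those of *Pcdh15* and *Pcdh8* and one promoter of *Mgat4c*, and in 12.4% of all promoters. A match is a run of letters and not a site shown to be bound. *Nkain3*, *Grin3a*, *Nxph4* and *Enpp5* had no entry.

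The autopod name was checked against segment identity genes that the rule did not use. All 3 autopod Hox genes were higher in members than in the rest in both libraries. At E14.5 *Hoxd13* stood at 151 and 57.5 CPM (log2 1.38), *Hoxa13* at 47.2 and 16.3 (1.48) and *Hoxd12* at 36.9 and 16.3 (1.14). At E16.5 *Hoxd13* stood at 150.2 and 75 CPM (0.99), *Hoxa13* at 50.6 and 30.4 (0.72) and *Hoxd12* at 26.9 and 10.1 (1.33). The members' levels of *Hoxd13* and *Hoxa13* thus lay close together at both stages, while the rest stood higher in the distal library for both genes. For *Hoxd12* the rest stood lower there. *Hoxd13* was found in 66.7% of members and 28.5% of the rest at E14.5 and in 86.3% and 47.4% in the distal library, and *Hoxa13* in 38.9% and 16% and in 58.2% and 33.2%. In the epithelial cells the shares were 9.33% and 11.4% for *Hoxd13* and 5.33% and 14.3% for *Hoxa13*. As background, 1.36% of 8146 genes tested were at least 2-fold higher in members at E14.5 and 1.1% of 8077 in the distal library, where 2.06% and 2.5% were at least 2-fold lower. Of the 3 autopod Hox genes 3 passed 2-fold at E14.5 and 1 (*Hoxd12*) in the distal library, and their median log2 ratio was 1.38 and 0.99 beside medians of 0.01 and 0.03 over all genes tested. A gene counted as tested where the mean of members and rest was at least 10 CPM.

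The 6 other posterior HoxA and HoxD genes did not share one direction. *Hoxa11*, the forearm gene, stood at 23.6 CPM in members and 32.1 in the rest at E14.5, where 39.1% of its UMIs in members came from 1 cell, and at 15.9 and 45.7 in the distal library (log2 -1.47). *Hoxa10* stood at 111 and 169 CPM (-0.61) and then at 35.9 and 82.8 (-1.18). Of the HoxD neighbours, *Hoxd9* was higher in members at E14.5, at 36.9 and 19.3 CPM (0.90), with 36.1% of the members' UMIs from 1 cell and 24.1% of members and 21.5% of the rest with a UMI, and stood at 9.69 and 11.9 in the distal library (-0.27), while *Hoxd11* differed little, at 99.5 and 84.0 CPM at E14.5 and 82.7 and 80.3 in the distal library. Members of the distal library were thus low in *Hoxa10* and *Hoxa11* and near the rest in *Hoxd10* and *Hoxd11*.

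Most proximal identity genes were lower. *Shox2*, a homeobox gene of the upper arm and forearm, stood at 104 CPM in members and 215 in the rest at E14.5 (log2 -1.04), and at 14.7 and 119 in the distal library (-2.94). *Meis2* stood at 7.18 and 25.5 CPM (-1.69) and at 1.84 and 9.14 (-1.84). *Pbx3*, a partner of Meis and Hox proteins, stood at 16.4 and 36 CPM (-1.08) and at 26.4 and 37.1 (-0.48). *Meis3* went the other way at E14.5, at 15.4 and 11.3 CPM (0.41), and was level in the distal library at 6.85 and 6.75. Of the proximal list 3 of 4 tested genes were at least 2-fold lower at E14.5 and 1 of 2 in the distal library, with 0 higher in either, and the medians were -1.06 and -1.71.

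The mesenchymal part of the name had a more mixed record. *Pdgfra*, a receptor of limb mesenchyme and fibroblasts, was found in 96.3% of members, 81.4% of the rest and 22.7% of the epithelial cells at E14.5, and in 93.2%, 86.3% and 38.1% in the distal library. It stood at 240 CPM against 163 in the rest (log2 0.55) and 253 against 226 (0.16). *Vim*, an intermediate filament gene of mesenchyme, was level at 2485 and 2486 CPM and at 4945.5 and 4620. Yet *Prrx1*, a homeobox gene of early limb mesenchyme, was lower, at 130.3 against 302 CPM (-1.20) and 114 against 312 (-1.44). *Twist2* was lower as well, at 23.6 against 95.7 (-1.97) and 71.2 against 183 (-1.35), and *Col1a1*, a chain of type I collagen, stood at 1949 against 2778 (-0.51) and 5408 against 7914 (-0.55).

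Transcript of the lineage label was present in members, although its background from free RNA was not measured. All members had tdTomato UMIs (100% against 97.0% and 99.1% of the rest), at 404 and 428 CPM at E14.5 and 762 and 857 in the distal library. *Hic1* stood at 44.1 and 27.4 CPM (log2 0.67) and at 39.9 and 27.4 (0.53), so that transcript from the locus was 1.61-fold and 1.46-fold higher in members, below the 2-fold limit. CreERT2 had 2 UMIs in members at E14.5 and 12 in the distal library.

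Summed markers of most other cell types that the sort could hold were lower in members than in the rest, and the part of such cells in the ratios was not tested. The summed level of 9 epithelial markers was 26.7 CPM in members and 84.9 in the rest at E14.5 and 7.52 and 187 in the distal library. At least 3 of them were found in 0 members, beside 0.901% and 1.28% of the rest. In members 4 and 2 of the 9 stood at 0, but members hold far fewer UMIs than the rest, so a gene at 0 says little. The 8 neuron markers summed to 24.6 and 44.6 CPM and to 49.95 and 67.7, with 4 and 2 of the 8 at 0, the 8 glial markers to 11.3 and 20.1 and to 15.7 and 19.3, and the 8 immune markers to 6.16 and 9.05 and to 5.01 and 4.98. Immune markers were thus level in the distal library. At least 2 neuron markers were found in 0 members at E14.5 and 2.31% of the rest, but in 6.08% of distal members and 4.58% of the rest. Fibroblast markers summed to 60.5 and 125 CPM at E14.5 and to 889 and 971 in the distal library, where 70.3% of members and 48.5% of the rest had at least 3 of them. Summed joint markers stood at 241 and 182 CPM at E14.5 (ratio 1.33, 1.16 to 1.51), of which *Osr2* alone gave 172 and 48.2, and at 193 and 257 in the distal library. At least 2 pericyte and smooth muscle markers were found in 49.0% of distal members and 34.1% of the rest, although their sum was lower, at 123 and 243 CPM. Cells with blood, macrophage or endothelial surface proteins had been gated out by the authors before capture. Endothelial markers stood at 42.1 and 47.1 CPM at E14.5 and were higher in distal members, at 42.3 and 34.1 (ratio 1.24, 1.09 to 1.41), where 12.2% of members and 5.63% of the rest had at least 2 of them. Chondrocyte markers need more care. Their sum was 383 CPM in members and 969 in the rest at E14.5 and 248 and 1185 in the distal library, and 6 of 9 and 9 of 10 tested markers were at least 2-fold lower, but 13 members (24.1%) and 40 members (15.2%) still had at least 3 of them, close to 24.8% and 15.4% of the rest. Tenocyte markers were at least 2-fold lower for 1 of 8 at E14.5 and 6 of 8 in the distal library, and dermal fibroblast markers for 3 of 8 and 4 of 8.

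Beyond the rule genes, 111 genes were at least 2-fold higher and 168 lower in members at E14.5, and 89 higher and 202 lower in the distal library. Of 7465 genes tested in both libraries, 20 (0.268%) were at least 2-fold higher in both and 50 (0.67%) lower in both, and 0 passed 2-fold in opposite directions. The 20 were 24.1% of the E14.5 genes and 30.3% of the distal genes that were higher and tested in both. When female and male cells were taken apart, 100 of the 111 and 167 of the 168 E14.5 genes kept their sign in both sexes, as did 88 of the 89 and all 202 distal genes. At least 2-fold in each sex were 40 of the 111, 94 of the 168, 63 of the 89 and 174 of the 202. These genes were picked by the ratio over all cells, of which the female and male cells are parts. A kept sign is therefore largely built in and is no replication, and its share over all genes tested was not counted.

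**Figure D2:**
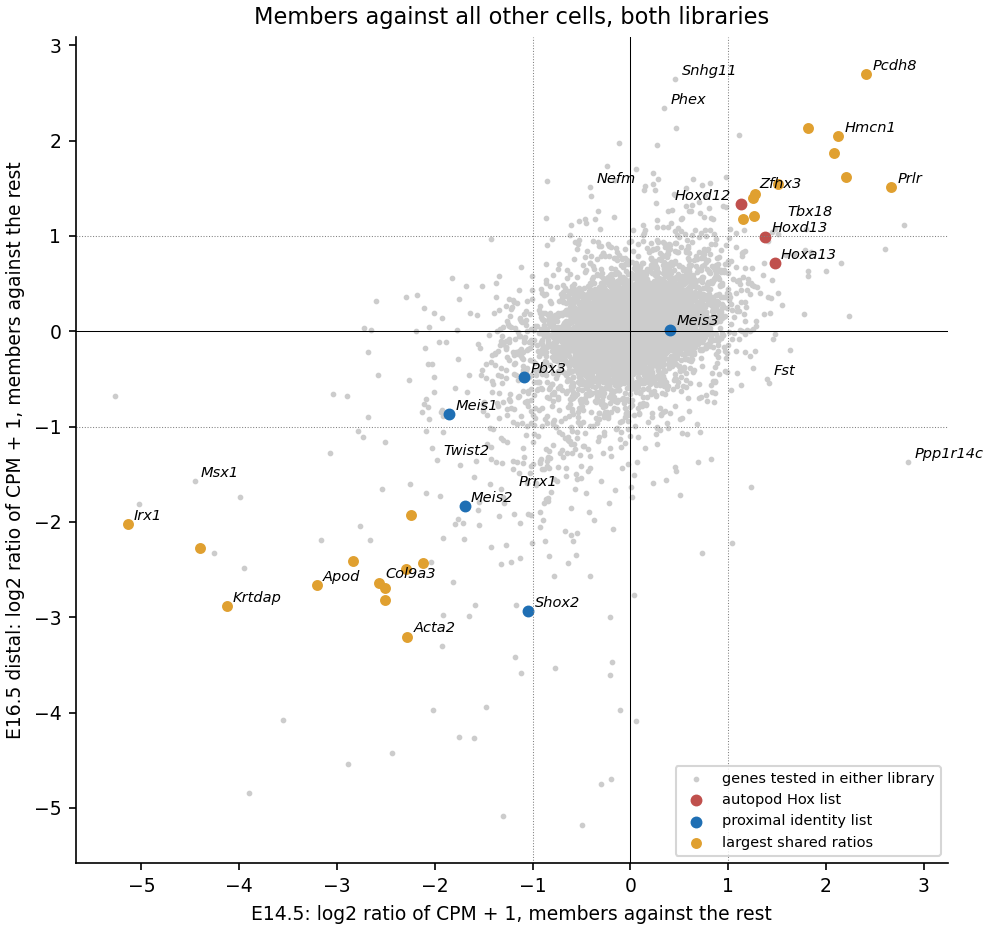
Log2 ratio of (CPM + 1), members against the rest, at E14.5 (horizontal) and in the E16.5 distal library (vertical) for the genes tested in either library, with dotted lines at 2-fold. The autopod Hox genes lie in the upper right, *Shox2* and the other proximal identity genes mostly in the lower left, and *Pcdh8* lies farthest up among the named genes high in both.

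The genes that were higher at both stages had mixed known functions. *Hmcn1*, which encodes the large extracellular matrix protein hemicentin-1, stood at 472 CPM in members and 107 in the rest at E14.5 (log2 2.13) and 439 and 105.5 in the distal library (2.05). *Pcdh8* stood at 31.8 and 5.16 CPM (2.41) and at 18.9 and 2.07 (2.70), ratios of 6.17 and 9.13. In the 18 male members at E14.5 taken alone its log2 ratio was -0.48. *Zfhx3*, a large zinc finger homeobox factor, stood at 426 and 178 CPM (1.25) and at 693 and 262 (1.40). *Grin3a*, an NMDA receptor subunit, stood at 19.5 and 3.84 CPM (2.08) and at 32.2 and 8.11 (1.87). *Brinp1* stood at 18.5 and 4.53 (1.82) and at 40.3 and 8.4 (2.13), *Islr2* at 70.8 and 14.6 (2.21) and at 20.9 and 6.13 (1.62), and *Nxph4*, a neurexophilin, at 26.7 and 8.71 (1.51) and at 42.4 and 13.9 (1.54). *Prlr*, the prolactin receptor, stood at 26.7 and 3.36 (2.67) and at 22.4 and 7.20 (1.51). The remaining genes named among the largest shared ratios were *Slc24a3*, *Pdzrn4* and *Enpp5*, with log2 ratios between 1.16 and 1.44. *Tbx18*, a T-box factor of limb and other mesenchyme, stood at 189 and 67.1 CPM (1.48) and at 109.8 and 51.5 (1.08). Some of these genes were not particular to the members. The other cells of distal cluster 1 held *Islr2* at 31.8 CPM and *Nxph4* at 38.1, beside 33.8 and 54.8 in its members. They held *Hmcn1* at 397 beside 664. Those of distal cluster 12 held *Islr2* at 3.72. At E14.5 *Islr2* and *Hmcn1* were among the leading genes of all 677 cells of cluster 3.

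Of the genes lower at both stages, *Col9a3*, a chain of cartilage collagen IX, stood at 27.7 CPM in members and 169.7 in the rest at E14.5, with 81.5% of the members' UMIs from 1 cell, and at 30.4 and 194 in the distal library (log2 -2.64). *Hapln1*, a link protein of cartilage matrix, stood at 4.10 and 21.2 (-2.12) and at 11 and 63.6 (-2.43). Against a rest without epithelial cells and chondrocytes, an alternative that takes no cells from the members, both genes were higher in members, *Col9a3* by 1.13 and 1.29 and *Hapln1* by 0.94 and 0.74 on the log2 scale. Chondrocytes there were cells with at least 3 chondrocyte markers, and both genes are among these markers. Such cells left the rest, while the 13 and 40 members with at least 3 of the markers stayed. The change of sign is thus at least partly built into that comparison. *Acta2*, smooth muscle actin, stood at 5.13 and 28.8 (-2.28) and at 6.01 and 63.6 (-3.20). *Apod*, a lipocalin, had 3 UMIs in members at E14.5 (3.08 and 36.6 CPM, ratio 0.0841, 0.0173 to 0.246) and stood at 10.2 and 69.8 in the distal library (-2.66). *Hspb1* stood at 8.21 and 51.6 (-2.51) and at 9.19 and 64.7 (-2.69), and *Arhgdib* at 11.3 and 59.1 (-2.29) and at 14.7 and 87.2 (-2.49). The Iroquois genes *Irx1* and *Irx2*, homeobox factors of skin and digit mesenchyme, were low as well. *Irx2* had 0 UMIs in E14.5 members, at least 6.53-fold lower than 20.1 CPM in the rest with 3 UMIs as the floor, and stood at 4.01 and 23.3 CPM in the distal library (-2.28). *Irx1* had 1 UMI at E14.5, against 70.5 CPM in the rest (ratio 0.0146, 0.000369 to 0.0811), and stood at 9.69 and 42.5 in the distal library (-2.03). *Krtdap*, *1500015O10Rik*, *Mia* and *Dkk3* completed the 12 with the largest shared ratios, and *Krtdap* is a keratinocyte gene whose E14.5 ratio turned to 0.45 against that smaller rest.

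Some genes were high in members of one library only by the 2-fold limit, and whether the libraries differ was not tested. At E14.5 *Tmem100* stood at 175 and 36.4 CPM (log2 2.24) beside 53.1 and 47.4 in the distal library (0.16). *Rbp4*, a retinol carrier, stood at 147 and 23.2 CPM (2.61) beside 112 and 61.0 (0.86). *Epha3*, an ephrin-A receptor, stood at 112 and 32.0 CPM (1.77) beside 19.2 and 16.8 (0.18), and *Osr2*, an odd-skipped factor of joint and synovial mesenchyme, at 172 and 48.2 (1.82) beside 75 and 49.7 (0.58). *Calb1* and *Rspo1* had 0 UMIs in E14.5 members and were at least 12.2-fold and 10.2-fold lower than in the rest. The reverse was seen for *Phex*, an endopeptidase gene known from bone and tooth, at 113 and 21.5 CPM in the distal library (2.34) beside 29.8 and 23.2 at E14.5. *Snhg11* stood at 72.7 and 10.8 CPM (2.64) beside 19.5 and 13.9, and *Prom1*, which encodes the membrane protein prominin-1, at 69.3 and 15.1 (2.13) beside 17.4 and 12.3. *Tmem100*, *Rbp4* and *Osr2* were among the leading genes of all 677 cells of E14.5 cluster 3. *Phex*, *Snhg11* and *Prom1* were among those of all 712 cells of distal cluster 1. The distal genes with the lowest ratios, *Krt1*, *Krt5*, *Krt14*, *Ly6d*, *Calm4* and *BC100530*, are keratinocyte genes, and the rest of that library holds 105 epithelial cells.

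Of the list of neuronal-type genes, 1 of 11 tested was at least 2-fold higher at E14.5 (*Ncam1*, at 273 and 122 CPM, log2 1.15) and 5 of 10 in the distal library, with 0 lower in either, and the medians were 0.26 and 1.05. Of all genes tested 1.36% and 1.1% were at least 2-fold higher. The list was chosen with earlier results of these data known. It holds *Nefm*, *Grin2a*, *Calb2* and *Crym*, which also belong to other gene sets of distal mesenchyme, so its distal count may be partly built in. The neurofilament genes *Nefm* and *Nefl* stood at 181 and 62.9 CPM (1.51) and at 114 and 37.8 (1.57) in the distal library. The other cells of distal cluster 1 held as much, with *Nefm* at 183 and *Nefl* at 102 CPM beside 161 and 112 in its members, and those of distal cluster 12 held 193 and 141. At E14.5 *Nefm* stood at 17.4 and 23.5 CPM, with 70.6% of the members' UMIs from 1 cell, and *Nefl* at 6.16 and 12. *Ntm*, a neurotrimin adhesion protein, stood at 149 and 76.9 CPM (0.94) and at 114 and 45.4 (1.31), and *Nlgn1*, a neuroligin, at 13.3 and 7.77 (0.71) and at 35.3 and 14.4 (1.24). *Calb2* stood at 25.1 and 9.24 CPM in the distal library (1.35), with 24.7% of the members' UMIs from 1 cell. Its sign turned under 4 alternatives, to -1.21 after thinning, -0.43 with at least 4 rule genes required, -0.38 without *Nkain3* and -0.64 without *Pcdh15*. The summed neuron markers given above were lower in members than in the rest at both stages, while the share of cells with at least 2 of them was higher in distal members.

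The Eph and cadherin families to which *Ephb1* and *Pcdh15* belong did not follow them as a whole. Of 15 Eph receptors and ephrins tested outside the rule 1 was at least 2-fold higher at E14.5 (*Epha3*) and 0 of 15 in the distal library, with medians of 0.21 and 0.18. Its nearest relative *Ephb2* stood at 30.8 and 27.5 CPM and at 51.5 and 52.6. Of the cadherins and protocadherins 3 of 15 were higher at E14.5 (*Cdh4*, *Pcdh8* and *Pcdh11x*) and 2 of 16 in the distal library (*Pcdh8* and *Pcdh9*), where *Pcdh10* was lower. *Pcdh8* was thus the shared member of that family. Among paralogs of the 6 genes, 0 of 7 tested passed 2-fold at E14.5 and 1 of 7 in the distal library, which was *Nkain4* at 21.2 and 9.62 CPM (1.06) beside 20.5 and 11.2 at E14.5 (0.82).

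Signalling genes were more often lower than higher, as were all genes tested. Of the latter 2.06% were at least 2-fold lower and 1.36% higher at E14.5, and 2.5% and 1.1% in the distal library. Among Wnt ligands and modulators 5 of 14 were at least 2-fold lower at E14.5 with 0 higher, and 6 of 13 lower with 1 higher in the distal library, with medians of -0.73 and -0.88. Secreted Wnt antagonists made up much of this. *Dkk2* stood at 64.7 and 156 CPM (-1.26) and at 47.3 and 107 (-1.17, but 0.070 in the 13 distal members left after thinning), *Sfrp1* at 20.5 and 44.7 (-1.09) and at 17.2 and 44.3 (-1.32), and *Wif1* at 47.2 and 75.6 (-0.67) and at 16.2 and 72.4 (-2.09). The Wnt agonist *Rspo2* went the other way in the distal library, at 36.1 and 8.43 CPM (1.98), but had 3 UMIs in members at E14.5. The other cells of distal clusters 1 and 12 held *Rspo2* at 29.5 and 42.3 CPM, beside 32.7 and 70.6 in their members. The target gene *Nkd1* was lower in both, at 15.4 and 39.9 (-1.32) and at 26.2 and 58.4 (-1.13).

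In the BMP and TGF-beta pathway 1 of 18 genes was higher and 4 lower at E14.5, and 0 of 19 higher and 3 lower in the distal library. *Gdf10* and *Inhba*, both ligands, were lower in both, *Gdf10* at 8.21 and 36.6 CPM (-2.03) and at 11 and 27.1 (-1.22) and *Inhba* at 6.16 and 23.2 (-1.76) and at 7.68 and 33.0 (-1.97). Among FGF genes the receptor *Fgfr2* was lower, at 7.18 and 19.3 (-1.31) and at 7.18 and 20.4 (-1.39), and 2 of 10 and 1 of 11 genes passed 2-fold downward. The hedgehog receptor and target *Ptch1* stood at 16.4 and 28.3 (-0.75) and at 16.7 and 51.8 (-1.58), and was the 1 of 7 hedgehog genes past 2-fold, in the distal library only. Of the retinoic acid genes 0 of 8 and 0 of 7 passed it in either direction.

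Of the dorsal, ventral, anterior and posterior regulators 1 of 11 tested was at least 2-fold higher and 1 lower at E14.5. In the distal library 1 of 11 was higher and 4 lower. Of the distal limb regulators 1 of 4 and 2 of 3 were lower and 0 higher. *Pax1* and *Grem1* were among the genes lower in the distal library. *Tbx3*, a T-box factor of the limb margins, stood at 9.24 and 32.4 CPM (log2 -1.70) and at 5.68 and 29.2 (-2.18), against the raised *Tbx18*. *En1*, the ventral ectoderm and dermis factor, stood at 14.4 and 19.7 (-0.43) and at 5.35 and 22.6 (-1.89). *Msx1*, a factor of undifferentiated distal mesenchyme, had 1 UMI in E14.5 members, against 43.5 CPM in the rest (ratio 0.0236, 0.000597 to 0.131), and stood at 4.84 and 16.4 in the distal library (-1.58). The median log2 ratio of the tested distal limb regulators was 0.056 at E14.5 and -1.56 in the distal library. At E14.5 the list thus did not follow *Msx1* as a whole. Of the cell cycle list 1 of 10 and 3 of 8 tested genes were at least 2-fold lower and 0 higher, with medians of -0.32 and -0.84.

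Levels differed with the number of rule genes that a cell had. At E14.5 *Hoxd13* stood at 50.2 CPM in cells with 0 of the 6 genes, 75.6 with 1, 112 with 2, 134 with 3 and 243 with 4 or more. The distal levels were 65.5, 85.2, 126, 148 and 156 CPM. *Hmcn1* went from 90.5 through 143, 265 and 420.0 to 762 CPM at E14.5 and from 86.8 through 119, 232 and 399 to 554 in the distal library, so cells with 1 or 2 of the 6 genes already lay between. *Shox2* went from 230.2 to 67.4 CPM at E14.5 and from 145 with 0 to 12.4 with 3 and 21.1 with 4 or more in the distal library. *Prrx1* went from 321 to 20.2 and from 338 to 104. The steps were not all in order. *Hoxa13* stood at 27.3, 34.3, 45.4, 52.9 and 44.2 CPM in the distal library, and at E14.5 it stood at 39.8 with 2 and 38.7 with 3 genes, where *Prrx1* stood at 146 and 150.1. The E14.5 class with 4 or more holds 8 cells.

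**Figure D3:**
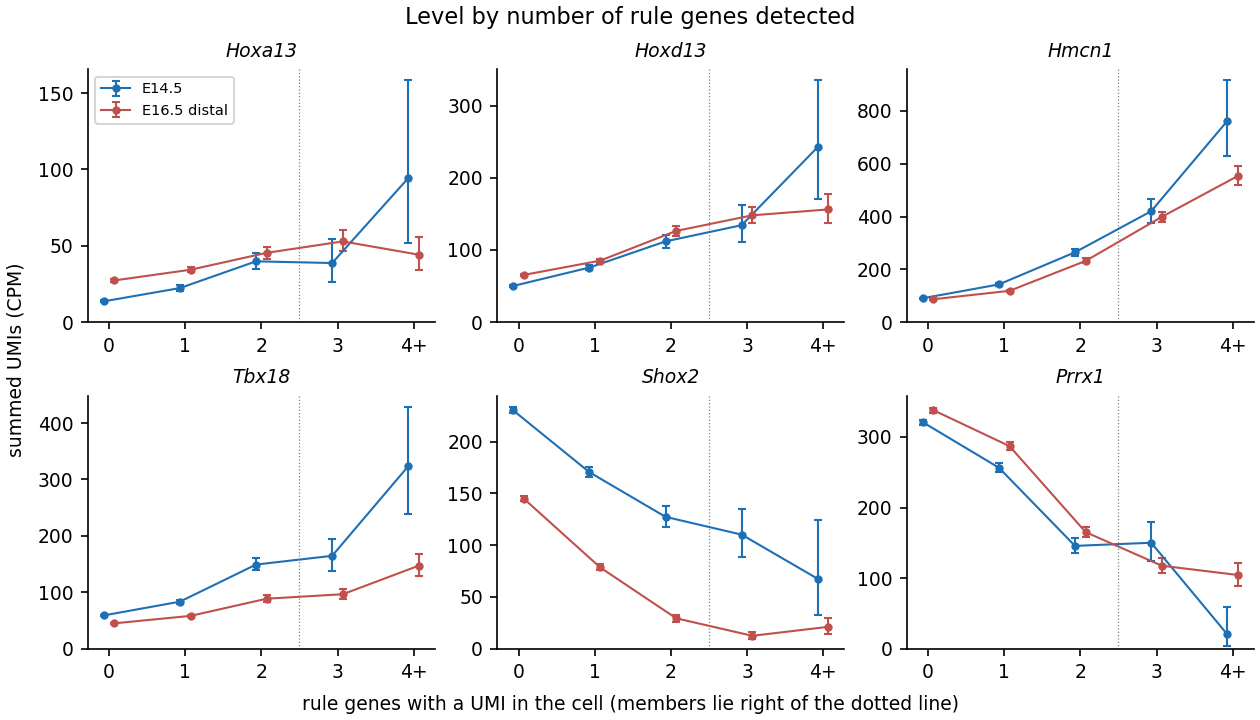
CPM of 6 genes by the number of rule genes with a UMI (0, 1, 2, 3, 4 or more) at E14.5 and in the E16.5 distal library, with 95% Poisson intervals and a dotted line at the threshold, right of which lie the members. *Hoxd13* and *Hmcn1* stand higher and *Shox2* and *Prrx1* lower in cells with more rule genes, for *Hmcn1* from 86.8 to 554 CPM in the distal library.

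The cells of each library were clustered without the 6 rule genes and without Hox genes. At E14.5, 29 of the 54 members (53.7%, 39.6 to 67.4) fell in 1 of 19 clusters, number 3, of 677 cells, led by *Islr2*, *Rbp4*, *Hey1*, *Hmcn1* and *Osr2* with *Hoxa13* and *Hoxd13* among its leading genes too. Members made up 4.28% of it. Of the others 7 lay in cluster 1, where 10 of 10 mitotic markers were raised, and 1 or 2 each in clusters 0, 4, 5, 6, 8 and 11, where *Hoxd13* stood between 5.19 and 11.3 CPM and *Shox2* between 180.2 and 601. The E14.5 members thus included cells of clusters with low *Hoxd13* and high *Shox2*, and 33.3% of them had a *Shox2* UMI, against 60.3% of the rest. A further 7 lay in cluster 10, led by *Grp*, *Cdh4* and *Pdlim5*. In the distal library 129 of 263 members (49.0%, 42.9 to 55.3) fell in cluster 1 of 21, of 712 cells, and 68 (25.9%) in cluster 12, of 362 cells, where they made up 18.1% and 18.8% of the cells. A further 22 lay in cluster 4, a mitotic one, and 16 in cluster 10, led by *Calb2*, *Crym* and *Mab21l2*. The 3 main clusters of members were alike in segment identity, with *Hoxd13* at 198 CPM in E14.5 cluster 3, 153 in distal cluster 1 and 126 in distal cluster 12, and *Shox2* at 7.02, 2.81 and 12. This identity was not particular to them, since clusters with few or no members also had high *Hoxd13* and low *Shox2*, such as E14.5 cluster 2 (279 and 24.1 CPM) and distal clusters 8 (253 and 5.51), 13 (184 and 10.3) and 14 (168 and 1.30). No cluster was given a cell type name, and the clusters are described by number, by leading genes and in places by raised mitotic markers.

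The members of both distal clusters differed in the rule genes, which had not been used to cluster them. In cluster 1 *Fam81a* was found in 89.9% of the 129 members, *Nkain3* in 72.1%, *Ephb1* in 71.3% and *Pld5* in 49.6%, with *Mgat4c* in 39.5% and *Pcdh15* in 17.8%. In cluster 12 *Nkain3* was found in 88.2% of the 68 members, *Mgat4c* in 86.8% and *Pcdh15* in 73.5%, with *Ephb1* in 29.4%, *Fam81a* in 25% and *Pld5* in 19.1%. Since the rule chose these cells for having 3 or more of the 6 genes, the shares within members are a description. *Nkain3* was frequent in both sets but unequal in level, at 68.7 and 118 CPM (ratio 0.584, 0.471 to 0.725). The other cells of these clusters, which the rule did not choose, differed in the same direction at lower levels. *Fam81a* stood at 55.6 CPM in them in cluster 1 and 6.52 in cluster 12, and *Ephb1* at 24.4 and 5.40, while *Mgat4c* stood at 9.09 and 52.5 and *Pcdh15* at 3.28 and 19.2. *Ephb1* and *Fam81a* were not particular to cluster 1, as they stood at 36.5 and 56.2 CPM in distal cluster 14, beside 39.0 and 69.4 in all cells of cluster 1. The E14.5 members in cluster 3 had *Pcdh15* in 82.8%, *Ephb1* and *Nkain3* in 79.3% each and *Fam81a* in 58.6%, but *Mgat4c* in 20.7% and *Pld5* in 0.

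**Figure D4:**
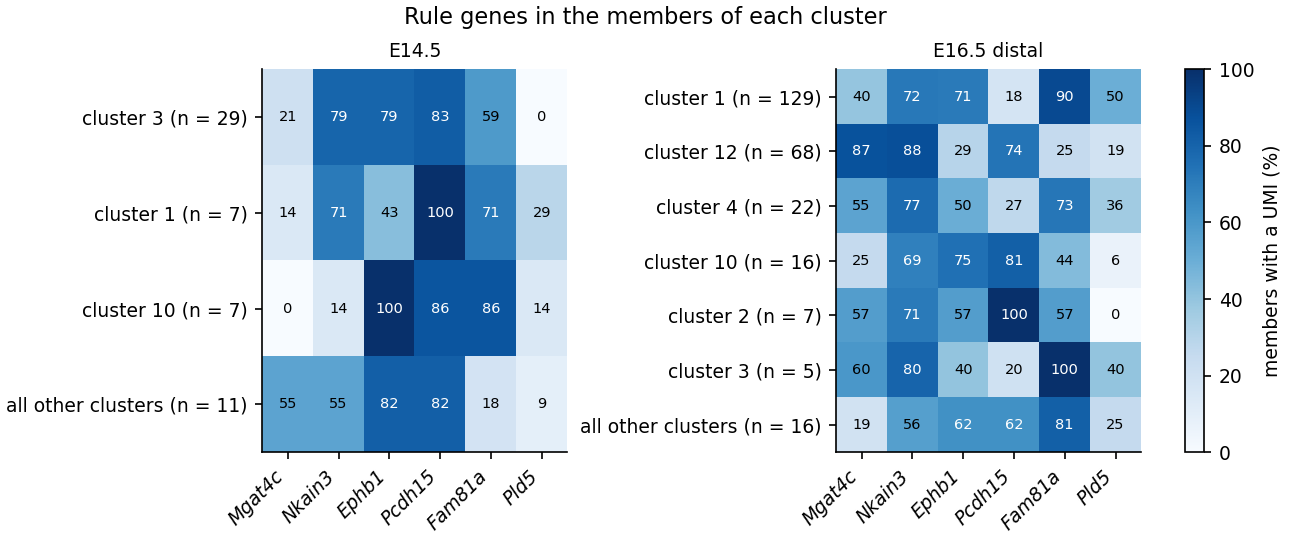
Share of members with a UMI (%) for each of the 6 rule genes in the clusters that hold them, at E14.5 and in the E16.5 distal library, with the number of members beside each cluster. Distal cluster 1 is dark for *Fam81a* (89.9%) and distal cluster 12 for *Mgat4c* (86.8%) and *Pcdh15* (73.5%), while *Nkain3* is dark in both.

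The split depended on how finely the cells were divided. At resolution 0.5, 206 of the 263 distal members (78.3%) lay in 1 cluster of 1270 cells, and at resolution 2 the largest part was 112 (42.6%) beside 69. With the rule genes kept in the clustering it was 116 (44.1%) beside 75. At E14.5 the largest share was 66.7%, 57.4% and 59.3% under these settings.

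Other genes also differed between both sets of members, and since the clustering used them they are a description. Of 5836 genes at 20 CPM or more, 119 were at least 2-fold higher in the 129 members of cluster 1 and 77 in the 68 of cluster 12, whose median depths were 19136 and 20406.5 UMIs. Higher in the first were *Fgfbp1*, a carrier of FGFs (164 against 7.84 CPM, ratio 20.9, 11.6 to 42.2), *Igfbp2* (298 against 23.5, ratio 12.7, 8.95 to 18.5), *Pcdh8* (40.2 against 2.14, ratio 18.8, 6.26 to 92.5) and *Cdh2*, the N-cadherin (96.5 against 18.5). *Pcdh8*, one of the largest shared ratios above, was therefore high in the members of one cluster, since 2.14 CPM (3 UMIs) in cluster 12 lay beside 2.07 in the rest of the library. Higher in the second were *Aard* (115 against 9.76, ratio 11.8, 7.79 to 18.7), the small proteoglycans *Dcn* (2330.3 against 374) and *Lum* (572 against 96.9), *Vcam1* (219 against 53.3), *Dpt* (196 against 47.7), *Epha5* (155 against 23.7) and *Irx5* (153 against 25.9). *Dcn* and *Lum* stood at 2489 and 1036 CPM in the rest, so cluster 1 members were low in these fibroblast matrix genes and cluster 12 members were near or below the rest. The other cells of clusters 1 and 12 differed in the same direction for all genes named here. They held *Fgfbp1* at 117 and 17.9 CPM, *Igfbp2* at 237 and 25.9, *Aard* at 5.71 and 72.4, *Dcn* at 775 and 2974.5 and *Irx5* at 10.0 and 133. These differences thus were not particular to the members.

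Both sets of members shared high *Hoxa13* and *Hoxd13*, low *Shox2* and part of the common set. *Hoxa13* stood at 50.7 and 53.5 CPM (ratio 0.948, 0.71 to 1.27) beside 30.4 in the rest of the library, and *Hoxd13* at 181 and 144 beside 75. *Hoxd12* was above the rest in both but unequal, at 39.4 and 17.1 CPM (ratio 2.30, 1.47 to 3.76) beside 10.1. *Shox2* stood at 2.25 and 3.56 CPM beside 119. *Zfhx3* stood at 731 and 782 CPM beside 262, *Phex* at 105 and 199 beside 21.5, *Nefm* at 161 and 297 beside 62.9, *Grin3a* at 42.4 and 31.4 beside 8.11 and *Tbx18* at 113 and 103 beside 51.5. *Hmcn1* was above the rest in both but unequal, at 664 and 296 CPM beside 105.5. *Prrx1* was below it in both, at 82.6 and 117 beside 312. The other cells of clusters 1 and 12 lay on the same side of the rest for these genes. They held *Hoxa13* at 54.0 and 41.9 CPM, *Hoxd13* at 145 and 121, *Shox2* at 2.96 and 14.1, *Zfhx3* at 469 and 613 and *Phex* at 71.9 and 102. The direction of these differences was thus not particular to the members.

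**Figure D5:**
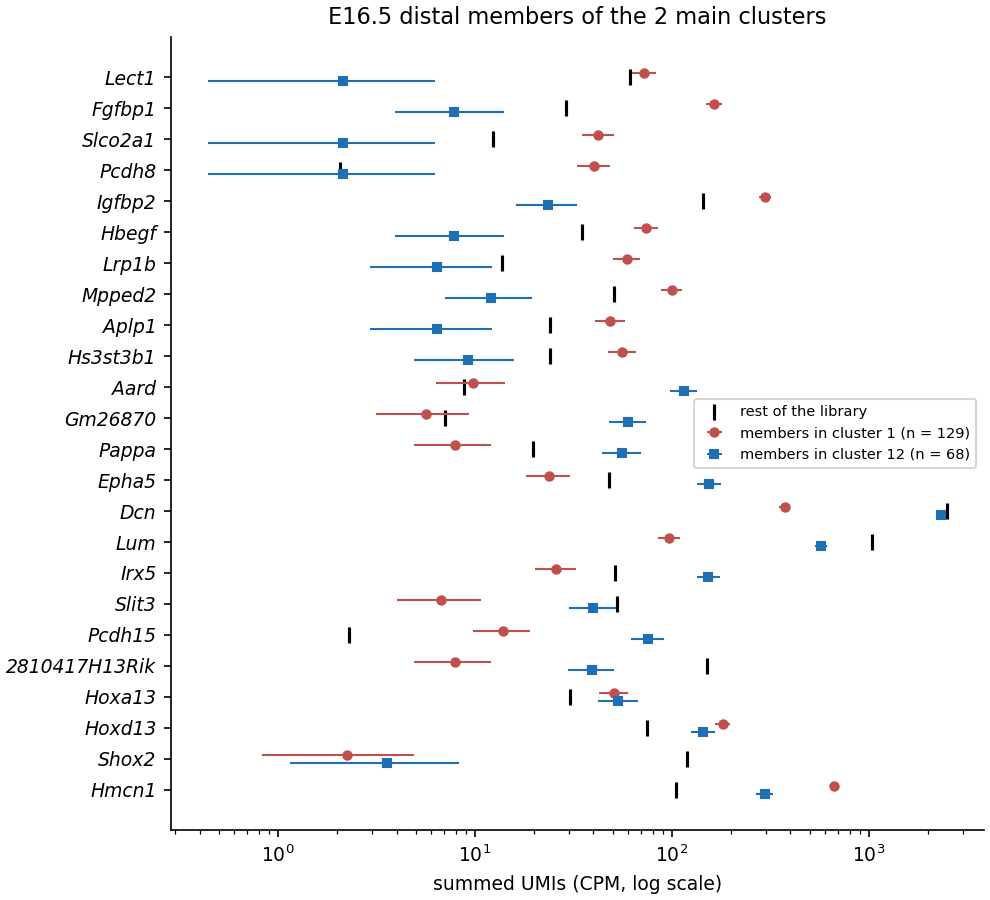
CPM on a log axis of 24 genes in the distal members of cluster 1 (129 cells), those of cluster 12 (68 cells) and the rest of the E16.5 distal library. *Fgfbp1* (164 against 7.84) and *Aard* (9.76 against 115) separate both sets of members, while *Hoxa13*, *Hoxd13* and *Hmcn1* are above the rest in both and *Shox2* is below it in both. The other cells of these clusters are not shown apart from the rest.

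Members were also counted against a pair of other gene sets of distal mesenchyme. At least 2 of *Foxq1*, *Grin2a* and *Nefm* were found in 0 members at E14.5 (1.66% of the rest) and in 8 in the distal library, or 3.04% against 2.94% of the rest. At least 2 of *Calb2*, *Cdh4* and *Crym* were found in 2 members at E14.5, or 3.70% against 2.35% of the rest, and in 23 in the distal library, or 8.75% against 5.01%.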

How the data were processed

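Single-cell suspensions were profiled with the 10x Chromium 3′ assay. The deposited UMI counts per gene and cell barcode were made by the authors with the Cell Ranger pipeline on a modified mm10 reference, and the file headers name version 3.0.2 for E14.5 and 6.0.1 for E16.5 distal. Total counts were 135534751 and 160375326 UMIs over all barcodes of these libraries.

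The members and gene lists were chosen with earlier results of these data known. Cells with at least 3000 UMIs and at most 10% mitochondrial UMIs were kept, and a cell was a member with a UMI in at least 3 of the 6 genes. UMIs were summed over cells, and log2 ratios of CPM + 1 were taken for genes at a mean of at least 10 CPM over members and rest, leaving out rule, mitochondrial, haemoglobin and sex-linked genes and the added sequences. At 10 CPM the members hold 9.75 UMIs at E14.5 and 59.9 in the distal library. Binomial intervals are Clopper-Pearson, and ratios of counts have exact conditional intervals. Genes named were the rule genes, their paralogs, segment identity genes, the 12 largest shared ratios in each direction, the 6 largest in each direction of each library and, from each other list, those past 2-fold in both libraries and up to 4 others by their level in members. Other list genes named, and the genes named between clusters, were chosen after their values were seen. For clustering, each cell was scaled to 10000 UMIs, and 2000 variable genes, 50 principal components, 25 neighbours and Leiden resolution 1 were used (scanpy 1.11.5, leidenalg 0.10.2, igraph 0.11.9, numpy 2.4.6, scipy 1.17.1, pandas 2.3.3, Python 3.11.15). Scrublet marked 2 cells (0.024%) in each library, too few for a working caller, so no doublets were removed. Members among the 7% of cells with the highest scores numbered 4 (7.41%) and 27 (10.3%). The scripts were tested on simulated data. Alternatives changed depth, filters, rule genes, sex, rest, pseudocount, scaling, fold and resolution. A pair of genes was taken out of the lists and is not reported here. No other library was used beyond its share of cells meeting the rule.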

Additional observations from a re-analysis of the deposited data

Results flagged for a closer look

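Of 130 genes looked at, 7 had log2 ratios of opposite sign in both libraries with counting intervals that left out equality in each. The difference between the libraries was not tested, and stage, limb part, embryos and Cell Ranger version cannot be told apart in it.

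Of the signalling genes, *Fst*, an activin antagonist, stood at a log2 ratio of 1.40 at E14.5 and -0.50 in the distal library. *Rspo3*, a Wnt agonist, stood at -0.73 and 0.70, and *Wnt5a*, a ligand of distal outgrowth, at -0.44 and 0.36. *Spred1*, an inhibitor of Ras signalling, stood at 0.47 and -0.28.

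The other genes were *Robo2*, a Slit receptor, at 0.57 and -0.12, *Top2a*, a gene of dividing cells, at 0.25 and -0.35, and *Ppp1r14c* at 2.84 and -1.37. Of the *Ppp1r14c* UMIs in E14.5 members 42.1% came from 1 cell, and distal members held 4 UMIs of it. It fell below the limit of 10 CPM in the distal library, so it was not among the genes tested in both libraries. In the 18 male E14.5 members the ratio of *Fst* was -0.58.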

How the results depend on the processing

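No paired analysis was possible because the E14.5 and E16.5 distal groups are 1 library each. Of 4428 alternative values for 246 gene results 3443 moved by less than counting error, 973 moved further and 12 were counted as a change of sign. Of 684 values for 38 list medians 588, 96 and 0 did. A change of sign was counted only where the main ratio or median was at least 2-fold. Sign changes of smaller values lie in the other classes and were not counted apart. With every cell thinned to 3000 UMIs the share of cells meeting the rule was 0.0239% at E14.5 and 0.154% in the distal library, with at least 4 genes 0.0955% and 0.781%, and against a rest without epithelial cells and chondrocytes 0.865% and 3.71%. Leaving *Nkain3* out of the rule gave 0.322% and 1.46%, *Ephb1* 0.215% and 1.86%, *Pcdh15* 0.191% and 2.18%, *Fam81a* 0.358% and 1.66%, and in the distal library *Mgat4c* 2.08% and *Pld5* 2.45%. The count of E14.5 genes higher and lower was 266 and 270 without *Nkain3*, 313 and 455 without *Ephb1*, 545 and 535 without *Pcdh15* and 190.0 higher without *Fam81a*, with 27, 18, 16 and 30 members left. It was 249 and 291 in female and 308 and 505 in male cells, 61 and 102 with a pseudocount of 5 CPM, 25 and 36 from 50 CPM, 308 and 600 from 2 CPM and 552 and 516 at 1.5-fold. In the distal library it was 583 and 699 after thinning (13 members), 26 and 45 from 50 CPM, 173 and 432 from 2 CPM and 346 and 412 at 1.5-fold, with 155 higher for at least 4 genes and 57 for a pseudocount of 5 CPM. The autopod Hox median was 1.78 without *Ephb1* and 1.87 without *Pcdh15* at E14.5, and 0.88 after thinning and 1.15 against a rest weighted by depth in the distal library. The proximal identity median was -1.65 without *Pcdh15* at E14.5. In the distal library, where 2 of its genes were tested, it was -4.94 after thinning, -2.81 without the highest Scrublet scores, -2.58 in female and -2.10 in male cells and -2.09 as a mean of each cell's CPM. The largest cluster held 78.3% of distal members at resolution 0.5 and 42.6% at resolution 2. The sign changed for *Pcdh8* (-0.48) and *Fst* (-0.58) in male E14.5 cells. Against a rest without epithelial cells and chondrocytes it changed for *Krtdap* (0.45), *Col9a3* (1.13) and *Hapln1* (0.94) at E14.5 and for *Col9a3* (1.29) and *Hapln1* (0.74) in the distal library, an alternative that takes cells from the rest only. *Col9a3* and *Hapln1* are among the markers by which those chondrocytes were taken out. In the distal library it changed for *Dkk2* after thinning (0.070) and for *Calb2* after thinning (-1.21), with at least 4 genes (-0.43), without *Nkain3* (-0.38) and without *Pcdh15* (-0.64). The cause of the other moves was not tested. At E14.5 thinning and the rule of 4 genes left fewer than 10 members and gave shares only. With 1 library per group and 54 members at E14.5, low counts limit single genes there.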

Other observations

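The members in the distal clusters also differed in ligands and receptors that were not described above. *Rspo3* stood at 171 CPM in the 129 members of cluster 1 and 85.5 in the 68 of cluster 12, beside 77.3 in the rest of the distal library, while *Rspo2* stood at 32.7 and 70.6 beside 8.43. *Hbegf*, an EGF receptor ligand, stood at 74.3 and 7.84 beside 34.9, and *Angptl4* at 26.3 and 115 beside 84.6. *Hand2*, a factor of posterior limb mesenchyme, stood at 37.5 and 7.13 beside 64.5. *Slit3* stood at 6.76 and 39.9 beside 53.0, and *Ror1*, a receptor of *Wnt5a*, at 7.88 and 38.5 beside 22.4. The cartilage gene *Lect1* stood at 72.5 CPM in cluster 1 and at 3 UMIs in cluster 12, a ratio of 33.9 (11.4 to 166), beside 61.2. The other cells of clusters 1 and 12 differed in the same direction, such as *Lect1* at 63.7 and 2.42 CPM and *Hbegf* at 45.2 and 15.1. As the clustering used these genes, their values are a description.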
